A study of Mus musculus with 12 samples.

Results

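The 4 metallothionein genes Mt1, Mt2, Mt3 and Mt4 were followed across colon tumours and adjacent colon tissue of mice with and without Synbindin in the intestinal epithelium. They were chosen by symbol, as 4 of the 48448 genes with a value, because earlier results of the same data had shown Mt1 higher in adjacent tissue with the deletion and Mt4 higher in tumours. The study holds 12 RNA-seq libraries, 3 for each of 4 groups. All mice were of the strain C57BL/6, and the tumours belong to a model of colitis-associated cancer. Flox adjacent (FA1 to FA3) and flox tumour (FT1 to FT3) libraries came from Synbindinflox mice, whose Synbindin allele is floxed. ΔIEC adjacent (DA1 to DA3) and ΔIEC tumour (DT1 to DT3) libraries came from SynbindinΔIEC mice, the intestinal epithelial deletion. The labels give no age, no Cre line or construct, and no agent by which the tumours were made. They also do not say that each library came from an animal of its own, so a p-value here speaks of the spread among these libraries. Xist and Y-linked transcripts showed both sexes in every group, so each group held more than 1 animal, with 2 female and 1 male libraries in each flox group and 1 female and 2 male in each ΔIEC group.

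Metallothioneins are small proteins in which many cysteines hold zinc and copper in metal-thiolate clusters. Mt1 and Mt2 are made in most tissues, the gut included, and are induced by zinc, cadmium, glucocorticoids, oxidants and inflammatory cytokines, the metals acting through the transcription factor Mtf1 at metal response elements. Mt3 is known from brain, where it was described as a growth inhibitory factor, and Mt4 from stratified squamous epithelium such as skin and tongue.

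On GRCm38 the genes stand in a row on the plus strand of chromosome 8, in the order Mt4, Mt3, Mt2, Mt1, within 43.131 kb. Mt4 (ENSMUSG00000031757) lies at chr8:94137197-94139031, Mt3 (ENSMUSG00000031760) at chr8:94152607-94154146, Mt2 (ENSMUSG00000031762) at chr8:94172664-94173568 and Mt1 (ENSMUSG00000031765) at chr8:94179082-94180327. The annotation gives Mt1 3 transcripts that are in the table. Mt1-201 is spliced from 3 exons and is 549 bases long. Mt1-202 is a single exon of 1085 bases that keeps both introns, which make up 64.2% of its length. Mt1-203, of 2 exons, keeps intron 2. The junctions below tell the first pair apart, and they are shown because the genotype difference in Mt1 was widest in the transcript that keeps the introns. Exon bases are in lower case and intron bases in capitals, on the plus strand of GRCm38, with 15 bases to each side.
Mt1-201 exon 1 to exon 2: gctcctgctccaccggcggctcctgcactt
Mt1-202 exon 1 into intron 1: gctcctgctccaccgGTAAGACTCCCGATC
Mt1-201 exon 2 to exon 3: cctcctgcaagaagagctgctgctcctgct
Mt1-202 exon 2 into intron 2: cctcctgcaagaagaGTGAGTTGGGACACC
Intron 1 spans chr8:94179339-94179822 (484 bases) and intron 2 spans chr8:94179889-94180101 (213 bases).

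Mt1 and Mt2 lie next to each other and share a mode of induction, so their promoter windows are also printed, as RefSeq gives them for GRCm38.p6, from 250 bases before to 50 bases after the annotated start. Capitals mark each match to the core of the metal response element, TGCACNC or TGCGCNC, on either strand.
Mt1 promoter (chr8:94178839-94179138, plus strand): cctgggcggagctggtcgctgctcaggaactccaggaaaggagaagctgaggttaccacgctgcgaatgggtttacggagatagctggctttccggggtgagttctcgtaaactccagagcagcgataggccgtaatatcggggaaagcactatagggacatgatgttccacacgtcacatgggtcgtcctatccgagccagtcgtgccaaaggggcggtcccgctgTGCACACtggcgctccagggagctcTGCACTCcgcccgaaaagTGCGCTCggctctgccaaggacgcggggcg
Mt2 promoter (chr8:94172368-94172667, plus strand): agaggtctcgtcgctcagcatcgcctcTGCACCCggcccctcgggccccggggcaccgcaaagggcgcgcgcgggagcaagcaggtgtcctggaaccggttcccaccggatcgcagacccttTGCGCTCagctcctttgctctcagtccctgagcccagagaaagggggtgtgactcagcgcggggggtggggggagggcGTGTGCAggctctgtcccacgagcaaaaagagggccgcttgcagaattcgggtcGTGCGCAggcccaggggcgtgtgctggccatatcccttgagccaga
The Mt1 window held 3 matches and the Mt2 window 4, while the windows of Mt3 and Mt4 held 1 each. Of 32851 promoter windows of the same length, 25.7% held at least 1 match and 1.97% at least 3. In both genes the annotated transcript starts upstream of the TATA box, which therefore lies beyond the window. The 30 bases that end with the TATAAA letters, again with matches in capitals, are as follows in the annotated transcripts.
Mt1-201, TATA box region (chr8:94179186-94179215): tTGCGCCCggactcgtccaacgactataaa
Mt2-201, TATA box region (chr8:94172729-94172758): TGCGCTCgacccaatactctccgctataaa
Each held 1 match. Before the TATA box the annotated transcript held 4 matches in Mt1 and 3 in Mt2, the match shown included. The Mt1 matches that start at chr8:94179091 and chr8:94179109 lie in both the promoter window and the transcript and are counted in both. A match is a description of letters, and binding at these sites was not measured.

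Values are FPKM, which are scaled to transcript length, so levels can be compared between genes. The summed FPKM of a library ranged from 534806 to 821487, and the sequencing depth is unknown because no counts were analysed here. As a check of the labels, Trappc4, which encodes Synbindin, lay between 9.91 and 12.7 FPKM in the ΔIEC libraries and between 16.8 and 20.9 in the flox libraries. Even so, limma did not call Trappc4 by genotype in adjacent tissue (unadjusted p = 4.31e-04, adjusted p = 0.931) or in tumours (unadjusted p = 1.04e-04). A gene that was not called by genotype here may therefore still differ. The adjacent libraries did not part by genotype alone. The summed FPKM of 4 genes of proximal colon (Hoxb6, Hoxb7, Hoxb8 and Cyp2c55) was 1110, 1775 and 1074 in FA2, FA3 and DA1 but 72.3, 139 and 26.4 in FA1, DA2 and DA3, and it was at most 11.2 in every tumour. The 7 colon epithelium markers were present in every library, with sums of 3297 to 10911 FPKM in adjacent tissue and 1750 to 2543 in tumours. The adjacent samples are labelled as colon epithelium but also held smooth muscle markers (sums of 18.2 to 249.9 FPKM). In such bulk tissue, fewer cells of a type and less RNA per cell cannot be told apart.

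Mt1 was the most abundant metallothionein in every adjacent library and the only member whose genotype groups did not overlap. In flox adjacent tissue it was at 53.5, 226 and 103 FPKM in FA1, FA2 and FA3. In ΔIEC adjacent tissue it was at 670.0, 459 and 498 FPKM in DA1, DA2 and DA3. Every ΔIEC library was thus above every flox library, with means of 127.6 ± 88.8 (SD, n = 3) and 542.6 ± 112, a ratio of 4.25. As log2(FPKM + 1), a scale on which low genes change by less than their true ratio, the difference was 2.30 (SE 0.411). This contrast chose the gene and is given with no test. Across all 16970 genes tested, 2.56% were higher in every ΔIEC than in every flox adjacent library. Position along the colon also varied within both groups, and its part in the difference was not tested. Of the libraries with few proximal transcripts, FA1 was at 53.5 FPKM against 459 in DA2 and 498 in DA3. Of those with many, FA2 and FA3 were at 226 and 103 FPKM against 670.0 in DA1.

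**Figure D1:**
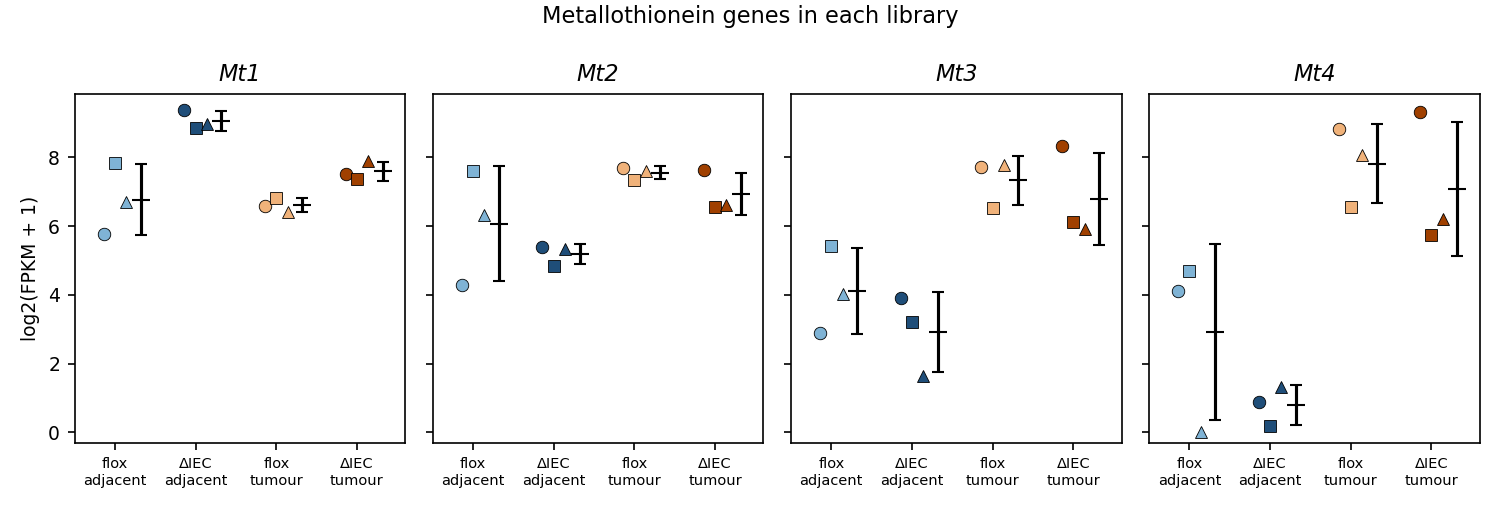
log2(FPKM + 1) of Mt1, Mt2, Mt3 and Mt4 in each of the 12 libraries (points, shaped by replicate number), and black bars for group means with SD (n = 3). Mt1 is highest in the 3 ΔIEC adjacent libraries, whereas Mt3 and Mt4 are highest in the 6 tumours.

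In tumours, whose libraries were not used to choose Mt1, the gene was again higher in every ΔIEC library. FT1, FT2 and FT3 share their description codes with FA1, FA2 and FA3, and DT2 and DT3 share theirs with DA2 and DA3. The labels do not explain these codes, so the tumours cannot be taken to come from other mice than the adjacent tissue. The level of Mt1 was 95.9, 112 and 84.2 FPKM in FT1, FT2 and FT3 and 181, 165 and 237 FPKM in DT1, DT2 and DT3. The means were 97.2 ± 13.7 and 194.1 ± 37.8 FPKM, a ratio of 2.00. Of all genes tested, 3.03% were higher in every ΔIEC tumour than in every flox tumour. The log2 difference of Mt1 was 0.98 (SE 0.411) and did not pass the test over 16970 genes (limma, unadjusted p = 0.0375, adjusted p = 1). Limma called 0% of genes in this comparison, and 317 genes had an unadjusted p below 0.05. An exact permutation test, two-sided, gave p = 0.1, the smallest that 3 against 3 libraries allow. Mt1 stayed higher with each library left out, with log2 differences between 0.83 and 1.09, and with sex as a covariate (0.96).

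Mt2, the gene next to Mt1 and its closest relative in expression across tissues, did not follow it by genotype. In adjacent tissue Mt2 was at 18.4, 193 and 78.9 FPKM in FA1, FA2 and FA3 and at 40.8, 27.8 and 39.2 FPKM in DA1, DA2 and DA3. The flox libraries spanned the ΔIEC ones, and the means were 96.8 ± 88.7 and 35.9 ± 7.12 FPKM. In tumours Mt2 was at 207, 161 and 194 FPKM in the flox libraries and at 199, 93.5 and 97.6 FPKM in the ΔIEC libraries. These groups overlapped as well, and the log2 difference of -0.61 (SE 0.667) did not pass (limma, adjusted p = 1; exact permutation p = 0.3). Mt1 and Mt2 therefore parted within a library. The ratio of Mt1 to Mt2 was 2.90, 1.17 and 1.31 in flox adjacent libraries and 16.4, 16.5 and 12.7 in ΔIEC adjacent libraries. In tumours it was 0.464, 0.693 and 0.433 in flox and 0.908, 1.76 and 2.43 in ΔIEC libraries. The ratio of 2 genes in 1 library does not depend on how the library was scaled, and in both tissues each ΔIEC library had a higher ratio than each flox library. In tumours the exact two-sided permutation test of the log2 ratio gave p = 0.1, the smallest possible.

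**Figure D2:**
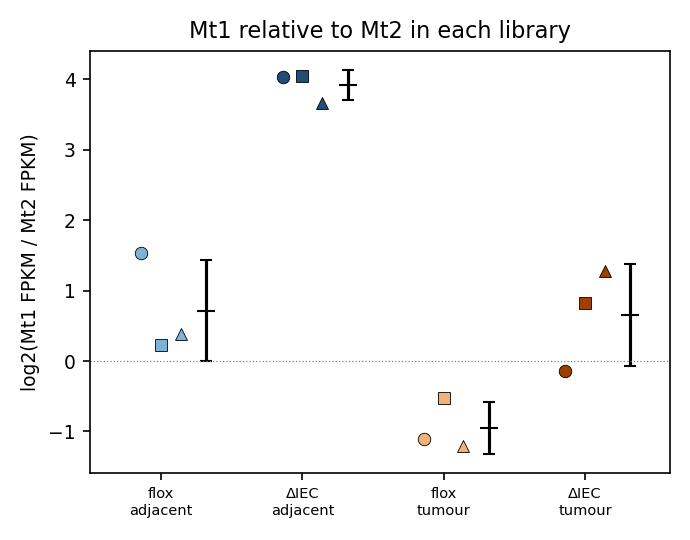
log2 of the ratio of Mt1 FPKM to Mt2 FPKM in each library (points, shaped by replicate number), and black bars for group means with SD (n = 3); the dotted line marks equal FPKM. Within each tissue the 3 ΔIEC libraries lie above the 3 flox libraries.

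The genotype difference in Mt1 was widest, as a ratio, in the transcript that keeps the introns. In flox adjacent libraries Mt1-202 was at 0.789, 1.55 and 2.33 FPKM. In ΔIEC adjacent libraries it was at 139.8, 84.7 and 91.8 FPKM. The means were 1.56 ± 0.771 and 105.4 ± 29.9 FPKM, a ratio of 67.6, given with no test because the contrast chose the gene. Every ΔIEC library was above every flox library, as were 4.16% of the 40417 transcripts tested in this contrast. Mt1-202 made up 1.48%, 0.688% and 2.26% of the Mt1 FPKM in FA1, FA2 and FA3. In DA1, DA2 and DA3 it made up 20.9%, 18.4% and 18.4%. The part of position along the colon in this share was not tested.

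The same transcript stood apart in tumours, most of which share a description code with an adjacent library. Mt1-202 was at 0.982, 0.546 and 0.831 FPKM in FT1, FT2 and FT3 and at 9.32, 20.97 and 29.2 FPKM in DT1, DT2 and DT3. Its means of 0.786 ± 0.221 and 19.8 ± 9.996 FPKM were in a ratio of 25.2, and the lowest ΔIEC tumour lay well above the highest flox tumour. In a fit over 40417 transcripts, added after the values were seen, the log2 difference was 3.42 (SE 0.367) and passed the test (limma, adjusted p = 0.0385). It was the only transcript called higher, 0.00247% of those tested, and 1 transcript, H2-Ke6-207, was called lower (log2 difference -1.29). The adjusted p of Mt1-202 ran from 0.00736 to 0.357 over the alternatives, while its log2 difference ran from 3.08 to 4.38. The call was lost under 15 alternatives and kept under 8. Among those that lost it were sex as a covariate (adjusted p = 0.139) and the tumours fitted alone (0.324). The share of Mt1 FPKM in Mt1-202 was 1.02%, 0.490% and 0.987% in the flox tumours and 5.16%, 12.7% and 12.3% in the ΔIEC tumours.

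The spliced transcript moved the same way by a smaller ratio. Mt1-201 was at 52.7, 224 and 101 FPKM in flox and at 530.2, 374 and 406 FPKM in ΔIEC adjacent libraries. In tumours it was at 94.3, 111 and 83.0 FPKM in flox and at 171, 144 and 208 FPKM in ΔIEC libraries, with no overlap, as for 3.5% of transcripts. Its log2 difference in tumours was 0.85 (SE 0.404), which did not pass (limma, adjusted p = 1). With Mt1-202 left out, Mt1 was at 126.0 ± 88.6 and 437.2 ± 82.1 FPKM in flox and ΔIEC adjacent tissue. The transcripts of a gene overlap, and how their shared reads were divided between them is not given in the sources used here, so the split between Mt1-201 and Mt1-202 is less certain than their sum. Mt1-203 never exceeded 0.666 FPKM.

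The summed FPKM share of the retained-intron class, taken as a whole, overlapped between genotypes. Mt1-202 itself is annotated as protein coding and lies outside that class, so this share does not cover it. Transcripts annotated as retaining an intron held 4.26% to 4.76% of the summed FPKM in flox adjacent libraries and 4.50% to 4.86% in ΔIEC adjacent libraries. In tumours these shares were 5.26% to 5.83% in flox and 4.26% to 5.47% in ΔIEC libraries. Mt2-202, a transcript of Mt2 that keeps part of an intron, was at or near 0 in 11 of 12 libraries and at 0.289 FPKM in FT2. Segments of mouse Mt1 that include its introns and polyadenylation signal have been used in some transgene constructs, and the labels name no Cre construct. Whether reads from a transgene add to Mt1 in the ΔIEC libraries was not tested.

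**Figure D3:**
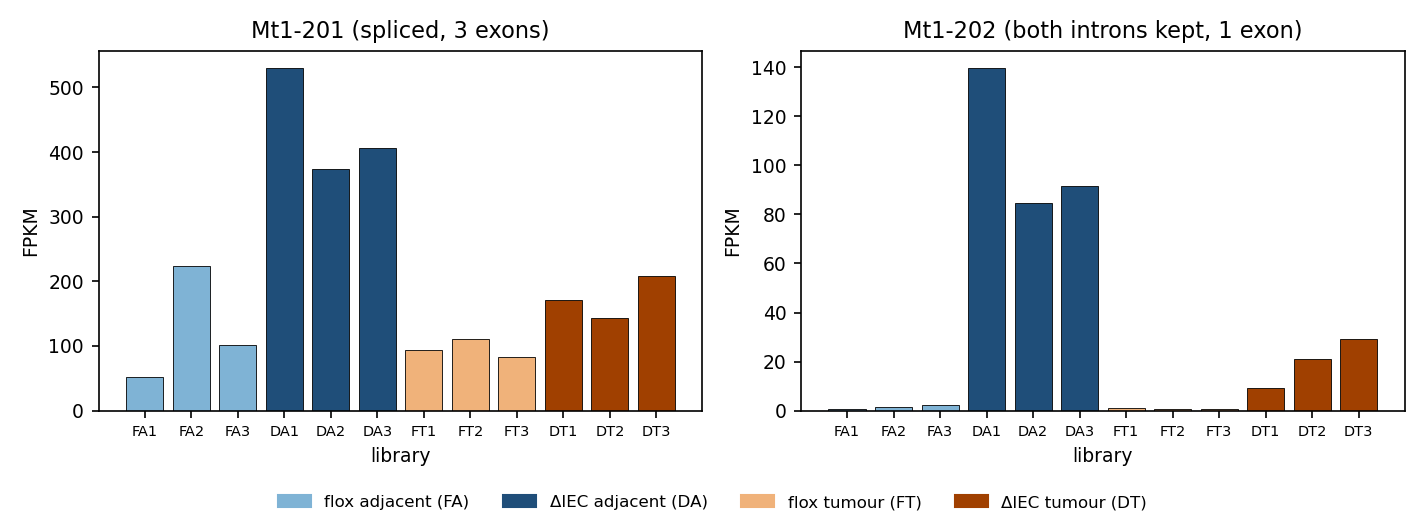
FPKM of the spliced transcript Mt1-201 (left) and of Mt1-202, which keeps both introns (right), as 1 bar for each library; both axes start at 0 and differ in scale. Mt1-202 reaches 84.7 to 139.8 FPKM in ΔIEC adjacent and 9.32 to 29.2 in ΔIEC tumour libraries, and at most 2.33 in any flox library.

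Between tumour and adjacent tissue the members went different ways. The family was chosen partly for Mt4 in tumours, so these differences are described without a test. Mt1 was lower in every ΔIEC tumour than in every ΔIEC adjacent library (log2 difference -1.48, SE 0.411). Across all genes 22.9% were so. Mt1-202 fell with it, from 105.4 ± 29.9 to 19.8 ± 9.996 FPKM. The summed epithelial markers were lower in the same tumours, at 2052 to 2517 FPKM against 3297 to 7600 in ΔIEC adjacent tissue. Singly, Epcam (369 to 370 FPKM against 315 to 513) and Cdh1 (210 to 255 against 221 to 348) overlapped. Krt8, Krt20, Vil1, Cdx2 and Car1 did not overlap and were lower in these tumours. The part of epithelial content in the difference of Mt1 was not tested. In flox mice Mt1 in tumours lay within the span of adjacent tissue, with a log2 difference of -0.16 that turned to 0.29 with protein-coding genes rescaled, to 0.24 with quantile normalization and to 0.37 without FA2. Mt2 was higher in every ΔIEC tumour (130.0 ± 59.8 FPKM) than in ΔIEC adjacent tissue (35.9 ± 7.12), a log2 difference of 1.76 (SE 0.667). In flox mice the tumours, at 161 to 207 FPKM, overlapped with the 193 FPKM of FA2, and the log2 difference was 1.48, or 0.59 without FA1 and 2.25 without FA2. In both adjacent groups the order of the means was Mt1, Mt2, Mt3 and Mt4 from high to low. In flox tumours Mt1 had the lowest mean of the 4, although in FT2 its 112 FPKM stood above Mt3 and Mt4. In ΔIEC tumours Mt1 was second to Mt4 by mean, and it was the most abundant member in DT2 and DT3. Of the neighbours in the adjacent order only Mt1 and Mt2 in ΔIEC adjacent tissue, Mt2 and Mt3 there, and Mt3 and Mt4 there did not overlap. In tumours the ranges of Mt2, Mt3 and Mt4 overlapped in both genotypes.

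Mt3, the metallothionein known from brain, was higher in all 6 tumours than in all 6 adjacent libraries. It was at 6.48, 41.9 and 15.2 FPKM in flox adjacent and at 14.2, 8.23 and 2.14 FPKM in ΔIEC adjacent libraries. In tumours it was at 210.2, 90.7 and 219.6 FPKM in FT1, FT2 and FT3 and at 324, 68.5 and 60.0 FPKM in DT1, DT2 and DT3. The ratio of means was 8.20 in flox and 18.5 in ΔIEC mice, and the log2 differences were 3.23 and 3.87 (SE 0.840 each). Without DT1, the highest tumour, the ΔIEC log2 difference was 3.10. Nearly all of it was Mt3-201, the full transcript of 3 exons, at 165.5 ± 67.8 and 145.2 ± 146 FPKM in flox and ΔIEC tumours. The 8 markers of enteric glia and neurons summed to between 1.61 and 7.81 FPKM in the 12 libraries, 4 of them staying below 1 FPKM throughout. Gfap reached at most 0.370 and Sox10 at most 0.396 FPKM. By genotype, Mt3 in tumours overlapped and did not pass the test (log2 difference -0.54, SE 0.840; limma, adjusted p = 1; exact permutation p = 0.7).

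Mt4, the squamous metallothionein, had the largest tumour to adjacent ratio of the 4. Adjacent tissue held 16.2 and 25.0 FPKM in FA1 and FA2, 0.853, 0.138 and 1.51 FPKM in DA1, DA2 and DA3, and was listed at 0 in FA3. In tumours Mt4 was at 448.7, 93.1 and 270.2 FPKM in FT1, FT2 and FT3 and at 633.7, 52.3 and 73.0 FPKM in DT1, DT2 and DT3. Every tumour was above every adjacent library, and the log2 differences were 4.88 in flox and 6.28 in ΔIEC mice (SE 1.27 each). The ratio of means was 19.7 in flox and 303 in ΔIEC mice. The latter rests on adjacent values near 0, and the log2 differences were 6.02 and 7.55 with a pseudocount of 0.1. Without FA3, the library listed at 0, the flox difference was 3.41. With DT1, the highest tumour, left out, the ΔIEC difference was 5.17. Across all genes, 26.4% were higher in every flox tumour and 20.8% in every ΔIEC tumour than in every adjacent library of that genotype. Of the members, Mt3 and Mt4 were so in flox mice, and Mt2, Mt3 and Mt4 in ΔIEC mice. All 4 members passed the filter, Mt4 by 6 tumours and 3 adjacent libraries.

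The summed squamous keratinocyte markers were, like Mt4, higher in all 6 tumours than in all 6 adjacent libraries. Singly, Krt4, Krt13, Krt14, Krt15 and Dsg3 were so, while Krt5, Krt6a, Trp63, Ivl and Sprr1b overlapped between tumour and adjacent tissue. In adjacent tissue the 10 markers summed to 4.94 and 4.36 FPKM in FA1 and FA2, the libraries with 16.2 and 25.0 FPKM of Mt4, and to between 1.05 and 1.89 FPKM in the other 4, which held at most 1.51 FPKM of Mt4. In tumours they summed to 515 and 395 FPKM in FT1 and FT2 and to 26.1, 49.7, 34.0 and 21.8 FPKM in FT3, DT1, DT2 and DT3. Among tumours the orders differed: Mt4 was highest in DT1, then FT1 and FT3, and FT2 held 93.1 FPKM. Krt5, the basal keratin, was at 93.8 and 89.2 FPKM in FT1 and FT2 and at most 3.37 in the other tumours. Trp63, the master regulator of stratified epithelium, was at 4.88 and 2.89 FPKM and at most 0.315 in the others. In FT3, DT2 and DT3 both genes lay within the range of adjacent tissue, which reached 0.317 FPKM for Krt5 and 0.0584 FPKM for Trp63. Distal position genes moved with tissue too. Hoxd11, Hoxd12 and Hoxd13 reached 11.5 to 18.3, 4.42 to 13.9 and 42.5 to 69.6 FPKM in tumours and at most 6.45, 0.993 and 31.0 FPKM in adjacent tissue, each of these highest in FA1. Hoxb13 and Hoxa13 overlapped between tumour and adjacent tissue. The part of squamous cells or of position in the level of Mt4 was not tested.

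**Figure D4:**
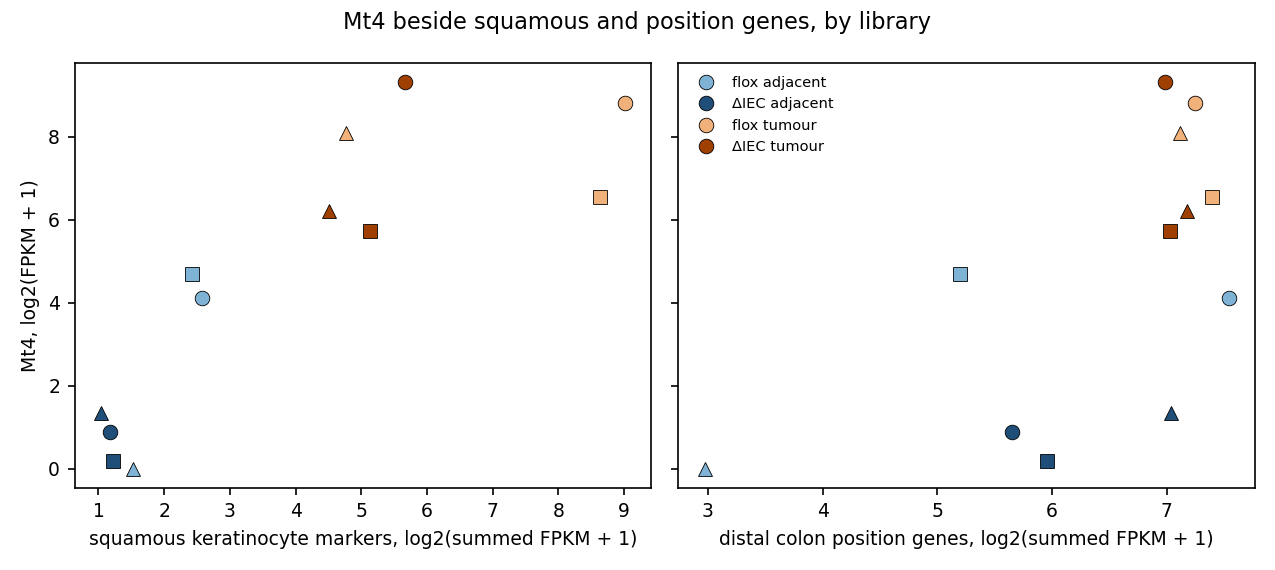
Mt4 as log2(FPKM + 1) against the summed FPKM of 10 squamous keratinocyte markers (left) and of 5 distal colon position genes (right), both as log2(sum + 1), with 1 point for each library, shaped by replicate number. All tumours lie above all adjacent libraries on both axes of the left panel, while the distal sums on the right, 125 to 167 in tumours, overlap with adjacent tissue (6.84 to 185).

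Among tumours, Mt2, Mt3 and Mt4 divided the libraries alike. FT1, FT3 and DT1 had the 3 highest values of both Mt3 and Mt4, and FT2, DT2 and DT3 the 3 lowest. Mt2 was likewise above 190 FPKM in FT1, FT3 and DT1 and at most 161 in the others, while Mt1 was not ordered so. The summed neutrophil markers divided the tumours in the same way, with 6 markers summing to 271, 438 and 675 FPKM in FT1, FT3 and DT1 and to 177, 198 and 264 FPKM in FT2, DT2 and DT3. S100a8, a calprotectin subunit, was at 102, 170 and 255 FPKM against 55.7, 61.1 and 70.1 FPKM, and at most 2.90 in adjacent tissue. S100a9 and Retnlg divided the tumours likewise, but Ly6g, Csf3r and Cxcr2 were higher in DT3 than in FT1. In adjacent tissue the sums reached 196 FPKM in FA1 and 167 FPKM in DA3, of which Ly6g held 192 and 161. The part of neutrophils in the levels of these members was not tested. Mt4 and Mt3 stayed within a ratio of 0.762 to 2.13 in tumours, although each varied over several-fold. Over the 12 libraries, Pearson's r of log2(FPKM + 1) was 0.889 between Mt3 and Mt4, 0.880 between Mt2 and Mt3 and 0.746 between Mt2 and Mt4. It was -0.300, -0.417 and -0.518 between Mt1 and Mt2, Mt3 and Mt4. These values describe libraries that share tissue and genotype and carry no test.

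Of 9727 genes with a mean of at least 5 FPKM, those most like Mt4 over the 12 libraries were Tmeff1 (Pearson's r 0.978), the calcium-binding protein S100a6 (0.977), the lipase-related Pnliprp1 (0.975), the Wnt inhibitor Apcdd1 (0.972) and the matrix proteoglycan Spock2 (0.969). Apcdd1 shared the division of the tumours, with 96.7, 99.8 and 144.4 FPKM in FT1, FT3 and DT1 and 27.8, 11.4 and 15.3 FPKM in FT2, DT2 and DT3. Those most like Mt1 were the immunoglobulin segments Ighv1-5 (0.852), Ighv6-6 (0.828) and Ighv5-9 (0.783), with Scamp3 (0.785), a protein of recycling membranes, and Rbck1 (0.776), part of a ubiquitin ligase. Segments of such a family share reads, so their values are uncertain. Ighv6-6 was at 158, 426 and 256 FPKM in DA1, DA2 and DA3 and at most 22.1 in flox adjacent libraries. B and plasma cell markers summed to 160.6 to 244.5 FPKM in flox adjacent tissue and to 166.5, 1019 and 855 FPKM in DA1, DA2 and DA3. Their part in the level of Mt1 was not tested.

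Genes that move or sense metals were read from fixed lists over the same fit. Zinc enters the cytosol through Slc39a importers and leaves it through Slc30a exporters, and Mtf1 senses it. Of 25 such genes 22 were tested. By genotype limma called 0 of 22 in adjacent tissue and 0 of 22 in tumours, as it called 0% of all genes in either, and 1 and 0 of the 22 had an unadjusted p below 0.05. The smallest p belonged to Slc30a2 in adjacent tissue (log2 difference -0.91, adjusted p = 0.931) and to Slc30a7 in tumours (0.23, adjusted p = 1). Mtf1 itself differed by 0.08 in adjacent tissue and by 0.02 in tumours. Over all genes, 702 and 317 had an unadjusted p below 0.05 in these contrasts.

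Between tumour and adjacent tissue the zinc list changed in both directions. In flox mice 4 of 22 rose and 9 fell, and in ΔIEC mice 3 rose and 8 fell, where limma called 36.3% of all genes in flox (16.6% up, 19.7% down) and 29.4% in ΔIEC mice (13.9% up, 15.5% down). The list median was -0.30 in both genotypes, beside -0.01 and -0.03 over all genes. With protein-coding genes rescaled, which moved the median of all genes to 0.36 and 0.22 and their calls to 6540 up and 1705 down in flox and 4415 up and 1449 down in ΔIEC mice, 7 rose and 6 fell in flox and 7 rose and 4 fell in ΔIEC mice, and the list medians were 0.11 and -0.01. Slc30a2, a zinc exporter of secretory vesicles, rose most, from 1.75 ± 1.58 to 33.6 ± 7.34 FPKM in flox (log2 difference 3.79, limma adjusted p = 3.48e-04). In ΔIEC mice it rose from 0.321 ± 0.210 to 26.3 ± 13.7 FPKM (4.27, adjusted p = 5.25e-04). The importer Slc39a10 was at 5.42 ± 0.451 and 16.1 ± 5.04 FPKM in flox and at 4.99 ± 1.42 and 15.5 ± 2.16 in ΔIEC mice, and rose in both. Slc39a5, a basolateral zinc importer of the gut, fell from 22.7 ± 5.07 to 1.78 ± 1.05 FPKM in flox (-3.14, adjusted p = 4.79e-04) and from 16.5 ± 5.18 to 1.90 ± 1.27 in ΔIEC mice (-2.65, adjusted p = 0.00165). Slc30a1, the plasma membrane exporter and, like Mt1 and Mt2, a known Mtf1 target, fell from 14.9 ± 5.79 to 4.24 ± 0.393 FPKM in flox and from 11.2 ± 1.88 to 4.13 ± 0.727 in ΔIEC mice. Slc30a10, a manganese exporter, fell in flox mice (-1.97, limma adjusted p = 0.0243), a call lost without FA2, FA3 or any 1 flox tumour. Mtf1 did not pass in either genotype (adjusted p = 0.577 and 0.468).

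Copper genes were also mixed. Of 11 tested, 3 rose and 5 fell in flox tumours and 3 rose and 3 fell in ΔIEC tumours, or 72.7% and 54.5% beside 36.3% and 29.4% of all genes. By genotype none was called, as for 0% of all genes. With protein-coding genes rescaled, 5 rose and 2 fell in each, and with quantile normalization 3 rose and 3 fell in flox. The count in flox fell to 4 without FA3 and to 5 without FA2 or FT3. Ceruloplasmin (Cp), the secreted copper ferroxidase, rose from 2.74 ± 1.55 to 36.2 ± 9.79 FPKM in flox and from 5.55 ± 3.597 to 48.0 ± 7.34 FPKM in ΔIEC mice. Hephaestin (Heph), its membrane-bound relative of enterocytes, fell from 64.0 ± 15.2 to 14.9 ± 3.42 FPKM and from 57.3 ± 17.6 to 17.4 ± 5.27 FPKM. Sco1, which brings copper to cytochrome oxidase, and Ccs, which brings it to superoxide dismutase, fell in both genotypes, with log2 differences of -1.24 and -0.97 in flox and -0.997 and -0.845 in ΔIEC mice. The call of Ccs was lost without FA2, FA3, FT2 or FT3 in flox mice, and in ΔIEC mice (limma adjusted p = 0.0433) with any 1 of FA3, DA1, DA2 and the 6 tumours left out (up to 0.137).

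**Figure D5:**
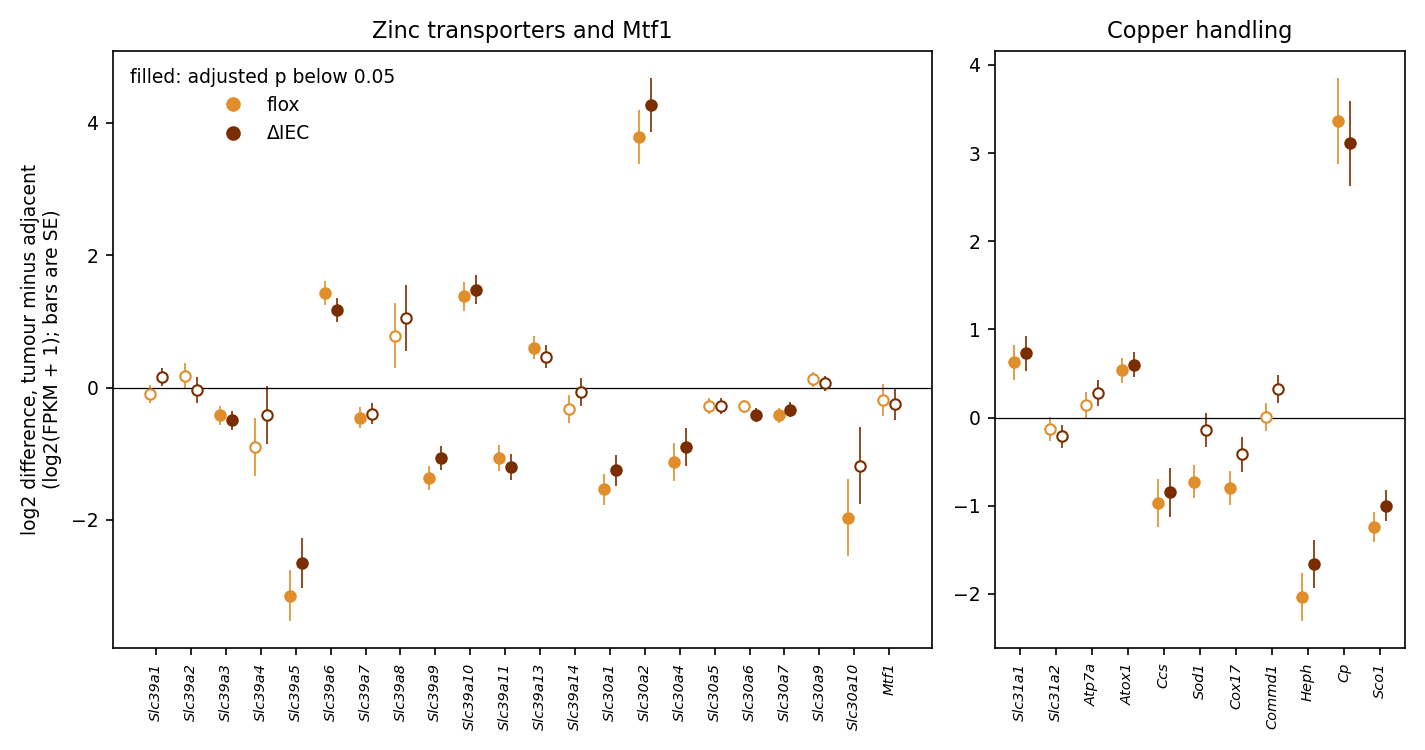
log2 difference between tumour and adjacent tissue, on log2(FPKM + 1), of the tested genes of zinc transport with Mtf1 (left) and of copper handling (right), with its SE; filled points had a limma adjusted p below 0.05. Slc30a2 and Cp rose most and Slc39a5 and Heph fell most, in both genotypes.

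Lists tied to inducers of Mt1 and Mt2 were read in the same way. None had a member called by genotype in either tissue, as for 0% of all genes. Targets of NRF2, the sensor of oxidants, changed both ways in tumours, 3 of 11 up and 6 down in flox and 4 up and 2 down in ΔIEC mice (81.8% and 54.5% called, beside 36.3% and 29.4% of all genes). Quantile normalization gave 4 up and 3 down in flox and 4 up and 1 down in ΔIEC mice. Rescaling to protein-coding genes gave 4 up and 3 down, and 4 up and 0 down, and median centring also left 0 down in ΔIEC mice. Heme oxygenase (Hmox1) rose to 25.7 ± 6.83 FPKM from 3.03 ± 0.535 in flox and to 19.6 ± 8.57 from 3.401 ± 0.874 in ΔIEC mice, and the cystine transporter Slc7a11 rose with it, while the quinone reductase Nqo1 fell. The call of Nqo1 was lost without FA2, FA3 or FT1 in flox mice, and in ΔIEC mice (limma adjusted p = 0.0498) with any 1 of FA2, the 3 ΔIEC adjacent libraries and the 6 tumours left out (up to 0.156). Of genes induced by glucocorticoids limma called 4 of 11 in flox and 3 of 11 in ΔIEC tumours, all lower. These shares, 36.4% and 27.3%, were close to the 36.3% and 29.4% of all genes. The list medians were -0.76 and -0.65. Rescaling to protein-coding genes, 1 rose and 3 fell in flox mice. Fkbp5, a chaperone of the receptor and its direct target, fell from 45.2 ± 13.6 to 5.69 ± 0.732 FPKM in flox and from 37.9 ± 6.62 to 8.71 ± 5.38 FPKM in ΔIEC mice. Of 12 genes of the IL-6 and STAT3 response, 9 rose and 1 fell in flox tumours. The gene that fell was Saa1, an acute-phase apolipoprotein (log2 difference -2.01). In ΔIEC tumours 6 of 12 rose. Medians of this list were 1.57 in flox and 1.21 in ΔIEC mice (83.3% and 50.0% called, beside 36.3% and 29.4% of all genes). The siderophore-binding Lcn2 was at 2.495 ± 1.76 and 97.9 ± 81.9 FPKM in flox and at 2.89 ± 1.99 and 114.9 ± 45.0 FPKM in ΔIEC mice. Without FA2 the NRF2 list had 2 calls in flox mice in place of 9. It had 3 in ΔIEC mice in place of 6 without DA1, DA3, DT1, DT3 or FT2, and 3 and 4 in flox mice without FA3 or FT2. The STAT3 list had 6 calls in flox mice without FA1 or FT3. The zinc list had 8 in flox mice without FA2.

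Genes beside the cluster did not share the size of its differences. Of 8 flanking genes 7 were tested. Between tumour and adjacent tissue limma called 42.9% of them in flox and 57.1% in ΔIEC mice, beside 36.3% and 29.4% of all genes. In flox tumours Nup93 and Nudt21 rose and Herpud1, a stress gene of the endoplasmic reticulum, fell, by 0.62, 0.57 and -0.50. In ΔIEC tumours Nup93, Nudt21 and Bbs2, part of the ciliary BBSome, rose by 0.76, 0.60 and 0.73 and Herpud1 fell (-0.64). Rescaling to protein-coding genes left 3 of 7 up and none down in each, and quantile normalization left none down in ΔIEC mice. The call of Herpud1 was lost in flox mice with any 1 of FA1, FA2, DA2, DA3, the 3 flox tumours and DT1 left out, and in ΔIEC mice without DA3, DT1 or DT2. That of Nup93 was lost in flox mice without FA2 or FT3, and that of Bbs2 in ΔIEC mice without DA3 or DT1. Without FA2 or FT3 1 was called in flox, and without DA3 or DT1 2 in ΔIEC mice. By genotype none of the 7 was called in either tissue, as for 0% of all genes. The smallest p in adjacent tissue was that of Bbs2 (log2 difference -0.32, adjusted p = 0.931). In the interaction, which asks whether the genotype difference is the same in tumour and adjacent tissue, limma called 0% of genes, 448 had an unadjusted p below 0.05, and no list had a called member. Mt1 differed by 2.30 in adjacent tissue and by 0.98 in tumours on the log2 scale, a difference of -1.32 (SE 0.581) given with no test.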

How the data were processed

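RNA of dissected colon tumours and adjacent tissue was sequenced from strand-specific TruSeq libraries, per the labels' protocols. FastQC, STAR 2.5, Cuffnorm and GRCm38 are named in the submitters' processing notes, without role or settings. The authors deposited log2(FPKM + 1) for 123062 transcripts in 12 columns, matched to libraries by the description code. Of the transcripts, 118004 (95.9%) matched GENCODE M21 on GRCm38; the rest held 4.36% to 7.44% of a library's FPKM and were left out. The log was undone and transcripts of a gene were added up. Depth is unknown, so no count model or counting interval was used.

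The 16970 genes that reached 1 FPKM in 3 or more libraries were fitted with limma 3.58.1 in R 4.3.3 on log2(FPKM + 1), with a pseudocount of 1, trend and robust eBayes, 1 mean per group and no block (8 residual degrees of freedom). Calls are two-sided at a Benjamini-Hochberg adjusted p below 0.05 over all genes of a contrast. Transcripts (40417) were fitted likewise, an addition made after the values were seen. The fit was tested on simulated data, and the outcome is not given here.

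The members, gene lists and marker lists were chosen with earlier results of these data known. Named are the members, up to 4 called genes of each list with the largest difference or else the smallest p, flanking genes, and the 5 genes most correlated with Mt1 and with Mt4; H2-Ke6-207, and further list members with markers, were picked with their values in view. The single-gene result of the flanking genes by genotype in tumours is not reported here. Alternatives were another pseudocount, filters, scalings, the groups compared alone, plain eBayes, blocks, sex, and leaving out each library.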

Additional observations from a re-analysis of the deposited data

How the results depend on the processing

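Over the alternatives run, 1233 values on the members and lists stayed on their side of the threshold, moved by less than 1 SD where no test was made, or for counts stayed within 1.5 times. Of the rest, 34 counts moved further, 15 values lost a call and 1 gained one. Untested member differences that stayed within 1 SD nevertheless changed sign: Mt1 between tumour and adjacent tissue in flox mice (-0.16) gave 0.24 with quantile normalization, 0.29 with protein-coding genes rescaled and 0.37 without FA2. The interaction gave -0.49 without FA2 and -0.08 without DT1 for Mt2 (0.27), and -0.01 and -0.13 for Mt3 (0.64). Mt1 in tumours by genotype did not pass under any gene-level alternative. With transcripts in place of genes its log2 difference was 3.42 for Mt1-202, which passed. That call was lost with quantile normalization (3.56, adjusted p = 0.0558), median centring (3.44, 0.0640), only the groups compared (3.42, 0.324), sex as a covariate (3.35, 0.139) and a replicate block by title number (3.42, 0.206). Leaving out 1 library gave 3.08 to 3.86, and the call was lost in 10 of 12 cases.

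With only the groups compared, ΔIEC tumours had 7 zinc calls in place of 11, 2 calls among cluster neighbours in place of 4 and 2564 over all genes in place of 4981, and genotype in tumours called 1. Without a filter, the NRF2 list had 3 calls in ΔIEC and the STAT3 list 6 in flox tumours, and genotype in tumours called 8 genes. Leaving out 1 library, flox tumours had 8 to 13 zinc, 4 to 8 copper, 2 to 8 NRF2, 6 to 10 STAT3 and 1 to 3 neighbour calls. ΔIEC tumours had 3 to 8 NRF2 and 2 to 4 neighbour calls. Over all genes the counts ran from 0 to 299 by genotype in adjacent tissue (299 without DA1), 0 to 3 in tumours, 3891 to 6725 in flox tumours (fewest without FA2), 2910 to 5086 in ΔIEC tumours (fewest without DT1) and 0 to 1 for the interaction. Of the named list genes, Commd1 by genotype in tumours turned to -0.036 without DT1 (range -0.036 to 0.28) and was not called; 88 of their calls were lost under single alternatives. The cause of these changes was not tested.

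The correlation of deviations of same-numbered libraries ran from -0.401 to 0.19. For libraries sharing a description code, which the labels do not explain, it ran from -0.192 to 0.17. Libraries that share a code were of the same sex. With 3 libraries a group, such correlations cannot tell whether libraries came from the same mouse. The replicate block by title number gave 5387 calls in flox and 4115 in ΔIEC tumours, in place of 6163 and 4981, and a block by code 6286 and 5060; the block by code changed no call among the results given here. FPKM carry no depth, so differences of genes near 0, such as Mt4 in adjacent tissue, depend on the pseudocount.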
